A study of Mus musculus with 6 samples.

Results

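The chemokine gene Ccl17 was more abundant in testes labelled Dis3l2 cKO than in testes labelled Dis3l2 WT, and the genes described here were chosen around that difference. They are Ccl17, its chromosomal neighbours Ccl22 and Cx3cl1, its receptor gene Ccr4, the monocyte-attracting chemokines Ccl2, Ccl7 and Ccl12, and Cxcl12 with its receptors Cxcr4 and Ackr3. All 10 symbols matched 1 gene each among the 54232 genes of the count table. The question was whether the Ccl17 difference extends to its neighbours or to chemokine receptors. Because Ccl17 was picked for its value in this same contrast, its values are a description without a test. The other 9 genes were picked by position, receptor or family, with earlier results of these data known. Those with enough counts were tested, but their p-values do not belong to a list fixed before those results.

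RNA came from whole testes at postnatal day 4 in 3 cKO and 3 WT samples. The strain was given as B6D2F1 inbred in both groups. Which exons were deleted and by which Cre line is not in the labels. Nor do they state that each sample is a different mouse, and all p-values below therefore rest on the spread between samples, which can be technical. Totals ran from 26126694 to 43265614 counts per library. Whole-gene counts of Dis3l2, which encodes a 3′-to-5′ exoribonuclease for uridylated RNA, were 30.6, 31.0 and 33.6 CPM (counts per 1000000 counts of a library) in cKO and 32.8, 31.0 and 32.1 CPM in WT (log2 fold change -0.01 with an SE of 0.07, edgeR adjusted p = 0.956). They therefore do not check the genotype labels. Sertoli, Leydig and germ cell markers were detected in all libraries. Beside 4.94% of all genes tested, 10 of 12 germ cell markers fell (median log2 fold change -0.78). Their summed level was 701 to 750 CPM in cKO and 1256 to 1331 CPM in WT. In whole testes, fewer cells of a type and less RNA per cell cannot be told apart.

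Chemokines are small secreted proteins that steer migrating cells through receptors coupled to G proteins. CCL17 and CCL22 share the receptor CCR4, found on regulatory and type 2 helper T cells, and mouse dendritic cells are a known source of both. CX3CL1 is made as a membrane-tethered ligand for CX3CR1, a receptor of macrophages and monocytes, and CCL2, CCL7 and CCL12 attract CCR2-bearing monocytes. CXCL12 guides mouse primordial germ cells to the gonad through CXCR4, and ACKR3 is a scavenging receptor that removes it.

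The stretches before the annotated starts of the 3 chromosome 8 chemokine genes are shown because these genes lie side by side on the plus strand and their values differed to unequal degrees between the groups. Each is the 250 bases before the RefSeq start (GRCm38.p6, plus strand): chr8:94810203-94810452 for Ccl17, chr8:94745434-94745683 for Ccl22 and chr8:94771930-94772179 for Cx3cl1. RefSeq starts Ccl17 where the deposited gene model does, but starts the others later, so that 94 bases of the Ccl22 stretch and 171 of the Cx3cl1 stretch lie inside the deposited gene. Capitals mark 2 motifs searched on both strands, the STAT6 palindrome TTCNNNNGAA and the general STAT palindrome TTCNNNGAA, bound by the STAT factors that act downstream of cytokine receptors.
Ccl17: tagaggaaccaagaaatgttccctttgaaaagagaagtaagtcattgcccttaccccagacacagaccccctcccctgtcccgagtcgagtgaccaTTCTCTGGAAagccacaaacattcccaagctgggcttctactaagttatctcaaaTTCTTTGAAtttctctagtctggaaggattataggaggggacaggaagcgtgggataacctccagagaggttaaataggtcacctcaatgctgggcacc
Ccl22: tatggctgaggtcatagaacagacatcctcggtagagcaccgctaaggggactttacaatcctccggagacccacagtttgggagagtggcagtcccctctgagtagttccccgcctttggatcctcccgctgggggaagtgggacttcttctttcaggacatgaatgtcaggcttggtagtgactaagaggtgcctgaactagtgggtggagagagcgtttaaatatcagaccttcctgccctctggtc
Cx3cl1: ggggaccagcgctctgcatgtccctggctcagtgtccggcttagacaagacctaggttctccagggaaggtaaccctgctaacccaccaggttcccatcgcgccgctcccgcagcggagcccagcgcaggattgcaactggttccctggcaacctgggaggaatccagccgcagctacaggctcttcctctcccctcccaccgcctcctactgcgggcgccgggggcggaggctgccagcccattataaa
The Ccl17 stretch held 1 match to each motif, TTCTCTGGAA and TTCTTTGAA, which do not overlap, and the other 2 stretches held 0 of either. Over all 32851 promoter stretches of this length, 5.85% held the STAT6 palindrome and 7.02% the general one. Among the 8 members with a RefSeq stretch, Ccl17 alone held either. A match describes letters and is not evidence of binding, and these are reference sequences, not sequences of these mice.

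Ccl17 (ENSMUSG00000031780.2, chromosome 8, 94810453 to 94812036, GRCm38, plus strand) had 38.6, 36.1 and 36.9 CPM in cKO libraries 1, 2 and 3, against 8.85, 9.39 and 10.4 CPM in WT libraries 1, 2 and 3. Every cKO library lay above every WT library, and the spread within a group was small. The means were 37.2 ± 1.3 CPM in cKO and 9.56 ± 0.80 CPM in WT (SD, n = 3 each), a ratio of 3.89. The fitted log2 fold change was 1.96 (SE 0.09). By size alone it ranked 32nd beside the 685 genes called higher, where called means an edgeR adjusted p under 0.05. With any single library left out it ran from 1.91 to 2.03.

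**Figure D1:**
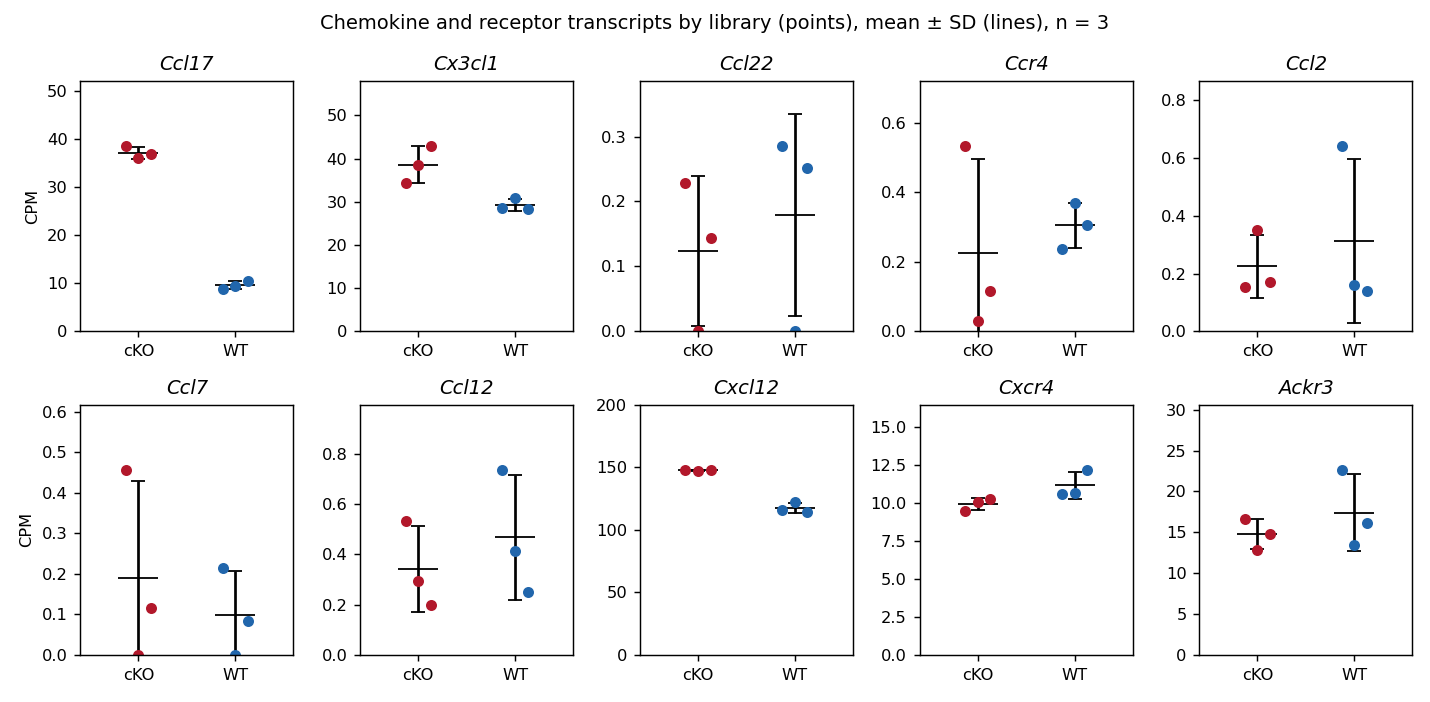
Level of the 10 genes in CPM by library, with cKO libraries in red on the left and WT libraries in blue on the right of each panel; black lines give the mean ± SD of 3 libraries, and each vertical axis starts at 0 with its own scale. Ccl17 is at 36.1 to 38.6 CPM in cKO and 8.85 to 10.4 CPM in WT, Cx3cl1 and Cxcl12 are higher in cKO without overlap, and Ccl22, Ccr4, Ccl2, Ccl7 and Ccl12 stay below 1 CPM in both groups.

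Of the 9 other genes, 6 had enough counts for the test, and 2 of these rose in cKO, while 0 fell. Over all 20153 genes tested, 8.34% were called in either direction, 3.4% higher and 4.94% lower. The 2 that rose were the ligand genes Cx3cl1 and Cxcl12, with changes far smaller than that of Ccl17. The 4 tested and not called were Ccl12, Ccr4, Cxcr4 and Ackr3, and Ccl22, Ccl2 and Ccl7 had too few counts. Groups did not overlap for 3 of the 6 (Cx3cl1, Cxcl12 and Cxcr4), beside 28.2% of all genes tested.

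Cx3cl1 (ENSMUSG00000031778.13, chromosome 8, 94772009 to 94782427, plus strand) ends 28025 bases before Ccl17 begins. It had 34.4, 38.5 and 42.9 CPM in cKO libraries and 28.6, 30.9 and 28.3 CPM in WT libraries. The lowest cKO library lay above the highest WT library, and the cKO libraries were spread more widely. The means were 38.6 ± 4.3 CPM in cKO and 29.3 ± 1.4 CPM in WT (SD, n = 3 each), with a log2 fold change of 0.40 (SE of 0.09, edgeR adjusted p = 0.0142). The call was lost without cKO replicate 2 (edgeR adjusted p = 0.0658) and without WT replicate 1 (0.0816), 2 (0.0526) or 3 (0.0791), with fold changes of 0.38 to 0.44 in those fits.

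Ccl22 (ENSMUSG00000031779.3, chromosome 8, 94745590 to 94751699, plus strand), whose product shares the receptor of CCL17, was barely detected. Its raw counts were 6, 0 and 5 in cKO libraries and 12, 0 and 9 in WT libraries. Each group held 1 library with no read, and the groups overlapped. The summed counts correspond to 0.115 CPM in cKO (exact 95% Poisson interval 0.058 to 0.206) and 0.173 CPM in WT (0.107 to 0.265), intervals that cover counting error only. With no filter on low counts the fitted log2 fold change was -0.56 (edgeR adjusted p = 0.889). The log2 ratio of mean CPM ran, with each library left out in turn, from -1.32 (without cKO replicate 1) to 0.056 (without cKO replicate 2).

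Around Ccl17, 0 tested genes had a fitted change of its size. Such changes were rare anywhere, as that of Ccl17 ranked 32nd by size beside the 685 genes called higher of 20153 tested. The 0 therefore says little about this stretch. Of 84 other genes annotated at least in part within 1 Mb of it, 56 were tested and 4 were called (7.14%, beside 8.34% of all genes tested), 2 higher and 2 lower. Their median log2 fold change was 0.05, beside 0.01 over all genes tested, and the highest fitted value was 0.99, for the gene model Gm45804, which was not called (edgeR adjusted p = 0.201). Besides Cx3cl1, the metallothionein gene Mt1 rose to 90.1 ± 6.5 CPM in cKO, against 69.9 ± 4.3 CPM in WT (SD, n = 3 each; log2 fold change 0.37 with an SE of 0.07, edgeR adjusted p = 0.0067). The nuclear pore gene Nup93 fell (72.3 ± 2.2 CPM in cKO and 86.6 ± 2.6 CPM in WT, SD, n = 3 each; log2 fold change -0.26, edgeR adjusted p = 0.0129). Ndrg4 fell more, to 7.32 ± 1.02 CPM in cKO, against 14.3 ± 0.5 CPM in WT (SD, n = 3 each; log2 fold change -0.97 with an SE of 0.12, edgeR adjusted p = 0.00042).

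The nearest tested gene on the far side, Ciapin1, an anti-apoptotic iron-sulphur protein gene on the minus strand, lies 7.77 kb after Ccl17. It had 28.3, 29.6 and 35.9 CPM in cKO and 28.1, 24.7 and 27.0 CPM in WT. The groups did not overlap, but by a narrow margin, and it was not called (log2 fold change 0.24 with an SE of 0.10, edgeR adjusted p = 0.162), except without cKO replicate 1 (0.0215). The nearest on the near side was Cx3cl1. The call of Mt1 was lost without WT replicate 1, and that of Nup93 without cKO replicate 2 or any 1 WT library. Without single libraries, the count of called neighbours was 9 (without cKO replicate 1), 2 (without cKO replicate 2, WT replicate 2 or WT replicate 3) and 1 (without WT replicate 1). The share of all genes called was 16.4% without cKO replicate 1 and 3.81% without cKO replicate 2. It was 3.64%, 2.97% and 3.99% without WT replicate 1, 2 and 3. Ccl17 lies near one end of a stretch of chromosome 8, from 30 to 95 Mb. In it 104 of 508 tested genes were called (20.5%), beside 8.34% of all genes tested. The stretch was chosen in earlier work on these data, so its 20.5% is not an independent result. Of the 104 calls 32 were higher and 72 lower, and the median log2 fold change of the 508 genes, Ccl17 among them, was -0.03.

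**Figure D2:**
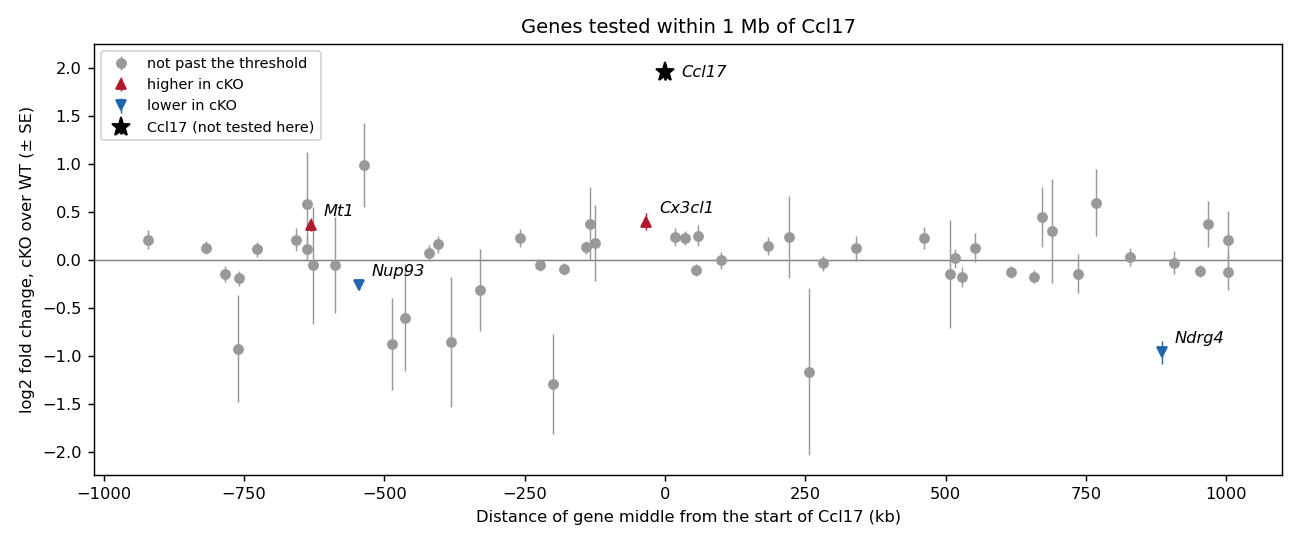
Fitted log2 fold change (cKO over WT, ± SE) of the 56 tested genes within 1 Mb of Ccl17, plotted by the distance of each gene's middle from the start of Ccl17 in kb; triangles are genes past the threshold, grey circles are not, and the star is Ccl17. Ccl17 stands at 1.96, Cx3cl1 beside it at 0.40, and the called genes Mt1, Nup93 and Ndrg4 lie over 490 kb away at 0.37, -0.26 and -0.97.

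Ccr4 (ENSMUSG00000047898.7, chromosome 9, 114490316 to 114504916), the receptor of CCL17 and CCL22, was near the limit of detection. Its raw counts were 14, 1 and 4 in cKO libraries and 10, 16 and 11 in WT libraries. In CPM, cKO replicate 1 was above all WT libraries and the other cKO libraries were below them, so the groups overlapped. It was not called (log2 fold change -0.52 with an SE of 0.76, edgeR adjusted p = 0.748), and the fitted value was 0.037 without cKO replicate 2 and -2.03 without cKO replicate 1. Ccr8, a further receptor of regulatory T cells, was too low to test.

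Markers of cell types known to make or sense CCL17 are given beside its difference. Over all genes tested, 3.4% were called higher and 4.94% lower. Of 15 macrophage markers 4 rose and 0 fell (median log2 fold change 0.28), with a summed level of 175 to 179 CPM in cKO and 146 to 152 CPM in WT. The count called was 0 without WT replicate 2 and 2 without cKO replicate 3. It was 1 without cKO replicate 2, WT replicate 1 or WT replicate 3. Those fits called 2.97%, 7.02%, 3.81%, 3.64% and 3.99% of all genes, in the same order, against 8.34% with all libraries. Of 14 dendritic cell markers 10 were tested and 0 called in edgeR, DESeq2 or limma-voom (1 with an unadjusted edgeR p under 0.05), and their summed level was 148 to 171 CPM in cKO and 152 to 158 CPM in WT. The dendritic genes Itgax, Cd209a, Clec9a and Cd207 were too low to test. Most of that sum came from Fscn1 (86.4 ± 9.7 CPM in cKO and 86.3 ± 2.5 CPM in WT) and Zbtb46 (59.0 ± 2.5 CPM in cKO and 54.0 ± 0.4 CPM in WT, SD, n = 3 each), an actin-bundling and a transcription factor gene that other cell types also express. Of 14 T cell markers 10 were tested and 1 rose, Cd3e (log2 fold change 1.23), a call not made without cKO replicate 2, WT replicate 2 or WT replicate 3, with summed levels of 14.2 to 20.2 CPM in cKO and 9.99 to 12.8 CPM in WT. Fitted values lay above 0 for 8 of the 10 and below 0 for 2 (median log2 fold change 0.31). Of 10 monocyte and granulocyte markers 8 were tested, of which the neutrophil genes S100a8 and S100a9 rose (log2 fold changes of 1.62 and 1.69) and the mast cell gene Cpa3 fell (-0.76). Fitted values of this list lay above 0 for 4 of the 8 and below 0 for 4 (median log2 fold change 0.14). In these 4 lists 0 markers were without a read in all libraries. Their part in the Ccl17 difference was not tested.

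Of 18 genes listed as known inducers of Ccl17 and Ccl22 or their receptors, 13 were tested, of which 3 rose and 1 fell (median log2 fold change 0.05). Over all genes tested, 3.4% were called higher and 4.94% lower. Csf2ra, which encodes a receptor subunit for the cytokine GM-CSF, had 56.6, 50.7 and 51.0 CPM in cKO and 34.1, 36.7 and 36.0 CPM in WT. The groups were well apart (log2 fold change 0.57 with an SE of 0.07, edgeR adjusted p = 0.00047). Crlf2, the receptor gene for the cytokine TSLP, rose by 0.49 on the log2 scale and the histone demethylase gene Kdm6b by 0.30, and both calls were lost without cKO replicate 2 or 3 or WT replicate 1 or 2, that of Kdm6b also without WT replicate 3. Irf4, a transcription factor gene that in mouse macrophages lies upstream of Ccl17, fell (0.118 ± 0.033 CPM in cKO and 0.518 ± 0.261 CPM in WT, SD, n = 3 each; log2 fold change -2.13, edgeR adjusted p = 0.0481). It passed the filter on low counts only through its WT libraries, where it was higher. Its call was lost without any 1 library but cKO replicate 1, with no filter (edgeR adjusted p = 0.0505), in limma-voom (0.0766) and when blocked by replicate number (0.0598). Stat6 itself had 39.1 ± 2.4 CPM in cKO and 36.3 ± 1.0 CPM in WT (SD, n = 3 each) and was not called (log2 fold change 0.11, edgeR adjusted p = 0.398). The cytokine genes Il4, Il13, Csf2, Tslp and Il25 were too low to test. Among 9 tested inflammatory cytokine and NF-kB genes of 15 listed, 0 were called in edgeR, 1 had an unadjusted p under 0.05, and limma-voom called 0. Fitted values lay above 0 for 8 of the 9 and below 0 for 1 (median log2 fold change 0.23). Tgfb1, a cytokine gene, was called in DESeq2 and, in edgeR, with no filter and with at least 1 CPM in 3 samples, and Tgfb1 and Nfkb2 were called without cKO replicate 1.

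The monocyte-attracting genes lie together on chromosome 11 and were all below 1 CPM. Ccl2 (82035571 to 82037453) had raw counts of 4, 12 and 6 in cKO and 27, 7 and 5 in WT. Ccl7 (82045712 to 82047525) had 12, 0 and 4 counts in cKO and 9, 0 and 3 in WT. Ccl12 (82101845 to 82103400), a chemokine gene of mice, had 14, 10 and 7 counts in cKO and 31, 18 and 9 in WT. WT replicate 1 was the highest library for Ccl2 and Ccl12, and the groups overlapped for all of the 3 genes. Ccl12 alone had enough counts to be tested and was not called (log2 fold change -0.49 with an SE of 0.56, edgeR adjusted p = 0.664), with a fitted value of 0.00086 without WT replicate 1. Without the filter on low counts the fitted values were -0.48 for Ccl2 (edgeR adjusted p = 0.834) and 0.86 for Ccl7 (0.798). With each library left out in turn, the log2 ratio of mean CPM ran from -0.95 to 0.58 for Ccl2 (above 0 without WT replicate 1) and for Ccl7 it was -0.79 without cKO replicate 1 but 2.19 without WT replicate 1, against 0.94 for Ccl7 with all libraries. Their receptor gene Ccr2 had 1.39 ± 0.16 CPM in cKO and 1.31 ± 0.15 CPM in WT (SD, n = 3 each) and was not called (log2 fold change 0.08, edgeR adjusted p = 0.902). No value given here for Ccl2 came near the 1.96 of Ccl17 (SE of 0.72 for Ccl2 without the filter), but smaller changes cannot be judged at these counts. For Ccl7 (SE of 1.14) neither a rise of the size of that of Ccl17 nor its absence could be shown.

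Cxcl12 (ENSMUSG00000061353.11, chromosome 6, 117168535 to 117181367) had the most counts of the 10 genes. It had 148.3, 147.4 and 147.9 CPM in cKO libraries and 115.7, 122.1 and 114.4 CPM in WT libraries. The groups were apart, and the cKO libraries nearly coincided. The means were 147.9 ± 0.4 CPM in cKO and 117.4 ± 4.1 CPM in WT (SD, n = 3 each), with a log2 fold change of 0.33 (SE of 0.05, edgeR adjusted p = 0.0018), a call kept in all 14 alternative fits.

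Neither CXCL12 receptor gene rose with it. Cxcr4 (chromosome 1, 128588199 to 128592293, minus strand) had 9.49, 10.1 and 10.3 CPM in cKO and 10.6, 10.7 and 12.2 CPM in WT. The cKO libraries lay just below the WT libraries, and the difference did not pass (log2 fold change -0.17 with an SE of 0.11, edgeR adjusted p = 0.386). Ackr3 (chromosome 1, 90203980 to 90216751, plus strand) had 16.6, 12.9 and 14.8 CPM in cKO and 22.7, 13.4 and 16.1 CPM in WT. The groups overlapped and WT replicate 1 stood above the rest, so that the log2 fold change of -0.24 (SE of 0.17, edgeR adjusted p = 0.433) was -0.0025 without it. The difference between the changes of Cxcl12 and its receptors was not tested. Beside the rises of Cxcl12 and Cx3cl1, 3 of 12 Sertoli markers and 3 of 8 Leydig markers rose and 0 fell, with a median log2 fold change of 0.21 in both lists, while 2 of 11 peritubular and stromal markers fell and 0 rose (median 0.03) and 1 of 11 endothelial markers rose (median near 0). The shares over all genes tested were 3.4% higher and 4.94% lower. Of 10 excurrent duct and mesothelium markers 3 fell and 0 rose (median -0.59), with sums of 272 to 282 CPM in cKO and 260 to 280 CPM in WT. The summed levels of the other lists were 6050 to 6801 CPM in cKO and 5545 to 5650 CPM in WT for Sertoli, 996 to 1108 CPM in cKO and 908 to 927 CPM in WT for Leydig, 9826 to 13263 CPM in cKO and 12522 to 13487 CPM in WT for stromal, and 680 to 728 CPM in cKO and 643 to 666 CPM in WT for endothelial markers. Without cKO replicate 1 the called markers numbered 9 for Sertoli, 6 for Leydig, 7 for stromal, 5 for endothelial and 6 for duct cells. In that fit 16.4% of all genes tested were called, against 8.34% with all libraries. Sertoli calls numbered 1 without cKO replicate 2 or WT replicate 1, stromal calls 0 without any 1 of the other libraries, endothelial calls 0 without WT replicate 2, and duct calls 1 without any 1 WT library. The share of all genes called was 3.81% without cKO replicate 2 and 7.02% without cKO replicate 3. It was 3.64%, 2.97% and 3.99% without WT replicate 1, 2 and 3. The part of these cells in the 2 rises was not tested.

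Seen across the whole chemokine system, ligands other than Ccl17 that were called all rose. Of 40 ligand genes listed, 13 other than Ccl17 were tested. Of these, 3 were called, all higher, beside 3.4% of all genes tested. Besides Cx3cl1 and Cxcl12 the 1 called was Ccl28, a chemokine gene of mucosal epithelia. It had 3.92, 3.33 and 3.12 CPM in cKO and 1.64, 1.20 and 1.53 CPM in WT. The groups were well apart (log2 fold change 1.24 with an SE of 0.21, edgeR adjusted p = 0.0034). The other 10 tested ligands ran from -0.70 for Ccl3 to 0.39 for Ccl24, and the median of the 13 tested ligands without Ccl17 was 0.02. No read was counted for Ccl19, Ccl21a, Ccl21b, Ccl21c or Ccl26; the Ccl19 and Ccl21 genes have near-identical copies in mice, and reads that map to several places were not counted.

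Of 24 receptor genes listed, 13 were tested and 0 were called in edgeR, beside 8.34% of all genes tested. The median log2 fold change of the receptors was 0.08, and 1 had an unadjusted edgeR p under 0.05. That gene was Cx3cr1, which encodes the receptor of CX3CL1 and had 14.7, 17.4 and 17.6 CPM in cKO and 13.3, 11.7 and 13.7 CPM in WT. Its groups did not overlap (log2 fold change 0.36 with an SE of 0.10, edgeR adjusted p = 0.0546). Cx3cr1 was called in DESeq2 (adjusted p = 0.0251) and limma-voom (0.0451), where 13.2% and 8.93% of all genes were called, and without cKO replicate 1 in edgeR (0.0047). Beside it, 4 of 15 macrophage markers rose, as given above, and their part in it was not tested. Receptors of CCL28 were too low to test: Ccr10 had 0.146 ± 0.135 CPM in cKO and 0.110 ± 0.051 CPM in WT, and Ccr3 had 0.121 ± 0.066 CPM in cKO and 0.063 ± 0.073 CPM in WT (SD, n = 3 each).

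**Figure D3:**
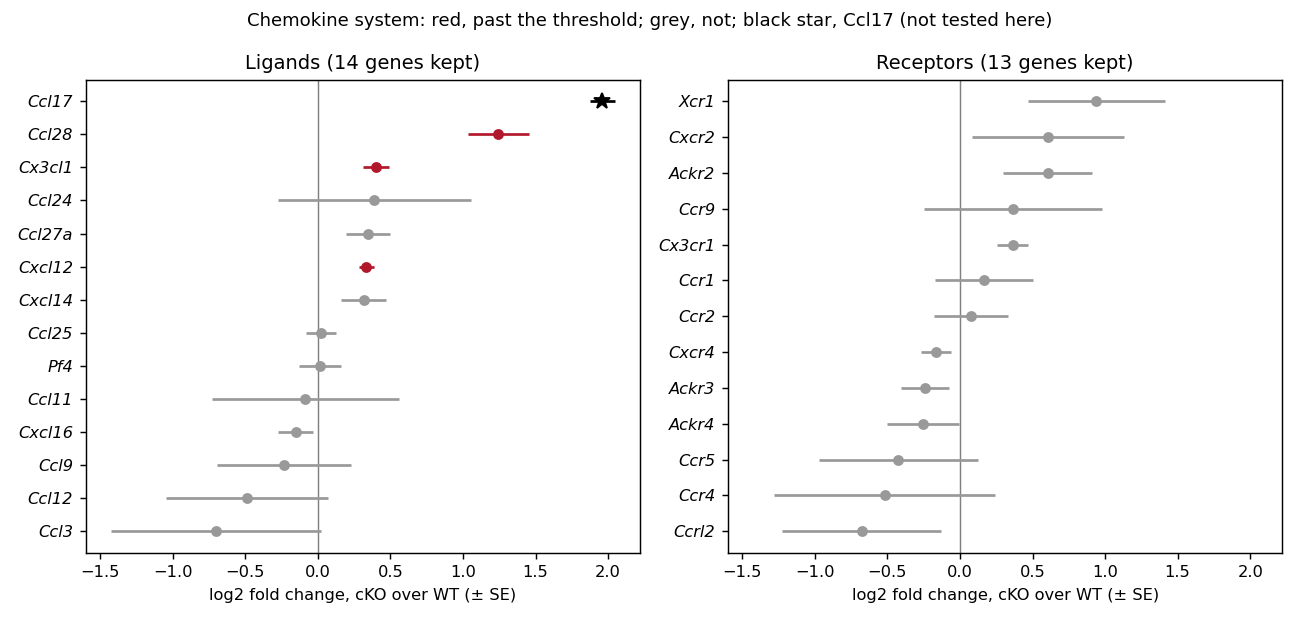
Fitted log2 fold change (cKO over WT, ± SE) of the 14 ligand genes (left) and 13 receptor genes (right) with enough counts, ordered by value; red is past the threshold, grey is not, and the black star is Ccl17. Ccl17 at 1.96 and Ccl28 at 1.24 stand above Cx3cl1 (0.40) and Cxcl12 (0.33), and 0 receptors are red.

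Among 13 tested genes that process chemokines or relay their signals, 1 rose and 1 fell (median log2 fold change -0.04). The shares over all genes tested were 3.4% and 4.94%. Without cKO replicate 1 the count called was 5, in DESeq2 4, and without WT replicate 2 or 3 it was 1. Those fits called 16.4%, 13.2%, 2.97% and 3.99% of all genes, in the same order. Mmp2, which encodes a matrix protease able to cut CXCL12, had 291, 307 and 348 CPM in cKO and 182, 167 and 179 CPM in WT, with all cKO libraries higher (log2 fold change 0.84 with an SE of 0.07, edgeR adjusted p = 1.6e-05). Dpp4, which encodes a peptidase that trims CXCL12 and CCL22, had 2.48, 3.22 and 2.64 CPM in cKO and 3.95, 5.20 and 4.91 CPM in WT, with all cKO libraries lower (log2 fold change -0.75 with an SE of 0.18, edgeR adjusted p = 0.0219). The call of Dpp4 was lost without cKO replicate 3, WT replicate 2 or WT replicate 3. The proteases that shed CX3CL1 were not called: Adam10 had a log2 fold change of 0.18 (edgeR adjusted p = 0.0683) and Adam17 of -0.04 (0.769).

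**Figure D4:**
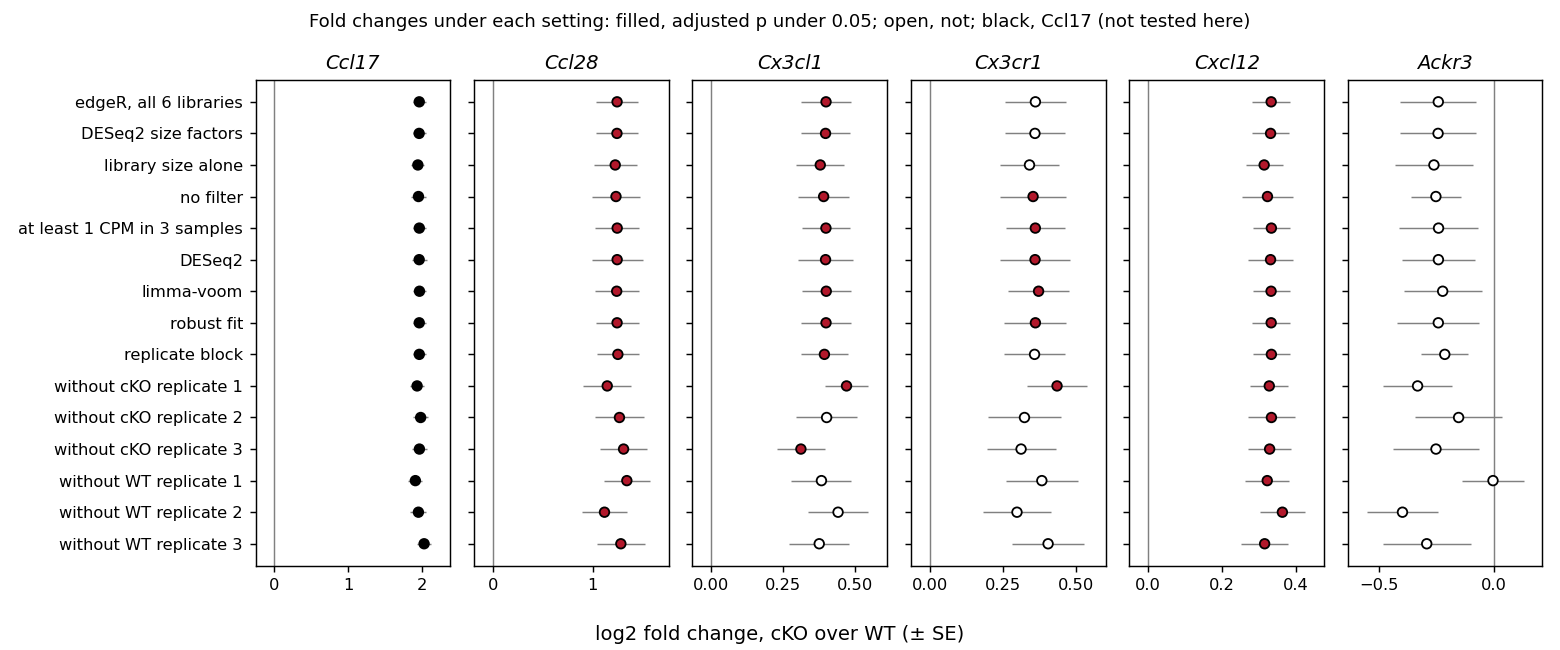
Log2 fold change (cKO over WT, ± SE) of Ccl17, Ccl28, Cx3cl1, Cx3cr1, Cxcl12 and Ackr3 in the fit to all 6 libraries and in 14 alternatives, 1 row each; filled circles have an adjusted p under 0.05, open circles do not, and Ccl17 is in black. Ccl17 stays between 1.91 and 2.03, Cxcl12 and Ccl28 are filled in every row, and Cx3cl1 is open in 4 of the rows that leave out a library.

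Per length of gene, Ccl17 was the most abundant of the 10 in both groups, at 72.3 ± 2.5 CPM per kb in cKO and 18.6 ± 1.6 CPM per kb in WT (SD, n = 3 each). This was above 96.7% of tested protein-coding genes in cKO and above 81.2% in WT. Its merged exons span 514 bases, and levels per length of so short a gene are less exact. Cxcl12 came next (18.1 ± 0.1 in cKO and 14.4 ± 0.5 CPM per kb in WT), then Cx3cl1 (9.82 ± 1.09 in cKO and 7.45 ± 0.36 in WT), Cxcr4 (5.50 ± 0.23 in cKO and 6.18 ± 0.50 in WT) and Ackr3 (4.41 ± 0.55 in cKO and 5.20 ± 1.42 in WT), all as CPM per kb (SD, n = 3 each). In that order neighbours did not overlap library by library, except Cxcr4 and Ackr3 in WT. Ccl12 followed at 0.637 ± 0.320 in cKO and 0.871 ± 0.461 CPM per kb in WT, and the remaining 4 genes overlapped their next higher neighbour in both groups.

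Among 15725 genes that averaged 1 CPM or more, Fggy, Ptprv and S100a8 had the profile over the 6 libraries nearest to that of Ccl17. The measure was the Euclidean distance between log2 CPM values centred on each gene's mean, which was 0.38 for Fggy, 0.49 for Ptprv and 0.55 for S100a8, against a median of 2.42 over all. With 2 groups of 3 libraries, most of this likeness is the size of the difference between groups. Fggy, a carbohydrate kinase gene on chromosome 4, had 25.3, 21.2 and 21.4 CPM in cKO and 5.97, 5.09 and 5.13 CPM in WT. S100a8, which encodes a calcium-binding protein of neutrophils, had 7.12, 8.65 and 7.68 CPM in cKO and 2.59, 2.51 and 2.51 CPM in WT. Ccl28 ranked 24th in likeness, Cx3cl1 723rd and Cxcl12 917th.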

How the data were processed

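The deposited files hold raw read counts by gene, made by the authors with featureCounts 1.6.4 on GENCODE M18 gene models, on the gene's strand, without counting pairs, multi-mapped reads or reads over more than 1 gene, per the file headers. The submitters' processing notes name cutadapt, HISAT2 and GRCm38.p5; tool versions are not given in the sources used here. Libraries were made from total RNA with random and poly(T) priming and transcript depletion, per the labels' protocols, while the molecule field names polyA RNA. Gene lengths are the deposited merged exon lengths. Of 54232 genes, 54165 were named from GENCODE M21.

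The filterByExpr rule (10 counts, 15 in total) retained 20153 genes. After TMM scaling, the quasi-likelihood test of edgeR 4.0.16 in R 4.3.3 set cKO against WT (two-sided, Benjamini-Hochberg over all 20153). CPM values use TMM-scaled library sizes, and log2 CPM a prior count of 2. The procedure was tested on simulated data. DESeq2 1.42.0 and limma-voom (limma 3.58.1) were alternatives; adjusted p-values that DESeq2 withheld were left out. Member transcripts had 0 copies in other genes (blastn 2.17.0, at least 95% identity over 30% of the transcript), and exons of 0 members overlapped another gene on the same strand. Promoters are from RefSeq (GRCm38.p6); 8 of 10 members matched. Figures used matplotlib 3.10.9.

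The members, gene lists and alternatives were chosen with earlier results of these data known. Named genes are the members, called chemokine ligands and receptors, up to 4 called members of each other list, called neighbours and the nearest tested gene on each side of Ccl17, and the 3 genes nearest to Ccl17 in profile; others named beside them were chosen after their values were seen.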

Additional observations from a re-analysis of the deposited data

How the results depend on the processing

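Genes called over the whole table numbered 1681, between 1699 and 2137 under other scalings, filters and tools, and between 623 and 3375 with single libraries left out. Called members other than Ccl17 numbered 2, and 1 to 2 with single libraries left out. Called receptors numbered 0, and 0 to 2 in those fits, and called neighbours of Ccl17 4, and 1 to 9. The share of all genes called was 8.34%, and 2.97% to 16.4% with single libraries left out. Receptors called numbered 1 (Cx3cr1) with no filter on low counts, with at least 1 CPM in 3 samples, in DESeq2, in limma-voom and in the robust fit, and 2 without cKO replicate 1, where Ackr4 was the other. Called neighbours numbered 2 within 0.5 Mb of Ccl17 and 7 within 2 Mb, as fewer or more genes were tested (27 and 66). The log2 fold change of Ccr4 ran from -2.03 to 0.037 and that of Ccl12 from -0.93 to 0.00086 with single libraries left out, above 0 for Ccr4 without cKO replicate 2 and for Ccl12 without WT replicate 1; the cause was not tested. Same-numbered cKO and WT samples deviated together only weakly (correlations of 0.03, 0.01 and 0.07), so the numbers were not taken as pairs. Yet 5 of 6 samples correlated best with their own number, which goes towards pairing, and a block on that number was fitted as an alternative. With the replicate number as a block, 1798 genes were called, among them Cx3cl1 (edgeR adjusted p = 0.0178) and Cxcl12, and no call among the members changed; of the called ligands, inducers, processing genes and neighbours, Irf4 lost its call (0.0598). Genes below about 1 CPM, among them Ccl22, Ccr4, Ccl2, Ccl7 and Ccl12, allow no statement on changes of moderate size.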

Other observations

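The cytokine gene Il13, whose product induces Ccl17 in several mouse cell types, was singled out after its values were seen. It had 5, 5 and 7 raw counts in cKO libraries and 0, 0 and 1 in WT libraries. The ratio of cKO to WT after scaling was 21.6 (exact 95% interval 3.39 to 904, counting error only). With no filter on low counts the gene was not called (edgeR adjusted p = 0.246).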
